A study of Mus musculus with 8 samples.

Results

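MiR-204 and miR-211 are paralogous miRNAs, and 3 of their mature forms, mmu-miR-204-5p, mmu-miR-204-3p and mmu-miR-211-5p, were examined here among the 1881 mouse miRNAs that the arrays carry. The 3 were picked out by their names in the scanner files, at a time when earlier results of these data were known. Kidney RNA came from male Akita mice of the strain C57BL/6-Ins2Akita/J (4 samples) and from male C57BL/6J control mice (4 samples), which the sample titles call Mock, and all 8 samples carry the age 36 without a unit. Akita mice carry a dominant Ins2 allele, whose misfolded insulin leaves them diabetic, and no other allele or agent is named for either group. Each sample was hybridised as Cy3-labelled total RNA to its own array of 1 slide, and the labels leave unsaid whether the samples are separate mice, so the p-values cover the spread among these samples, which may be technical. The samples of each group are called kidneys 1 to 4 after their replicate numbers. Akita arrays filled row 2 of that slide and control arrays row 1, and the effects of row and of genotype cannot be told apart.

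A miRNA hairpin is cut into a 5p and a 3p arm, one of which usually enters the Argonaute protein and pairs through its seed, bases 2 to 8, with target mRNAs, lowering their translation and stability. MiR-204 is known from the kidney tubule, the retinal pigment epithelium and the lens, and miR-211 from melanocytes, where its host gene is driven by the pigment cell factor MITF. Both lie within introns of genes for melastatin cation channels. Whole kidney was measured, so fewer cells that make a miRNA and less of it per cell cannot be told apart, and with 1 tissue on the arrays an enrichment in kidney could not be examined.

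The sequences below are shown because the 2 paralogs are nearly alike and the arrays had to tell them apart. They are the RefSeq entries of the GRCm38.p6 build, in which all 3 miRNAs and the 3p arm of miR-211 were found, with the seed in capitals.
miR-204-5p: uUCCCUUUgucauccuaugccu
miR-211-5p: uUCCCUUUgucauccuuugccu
miR-204-3p: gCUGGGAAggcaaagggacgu
miR-211-3p: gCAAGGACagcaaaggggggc

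The 5p arms had 21 of 22 bases in common and differed by the substitution A17U, counted from the 5′ end with the miR-204-5p base first. Their seeds were identical. In the table of 1679 mature names, 1 further miRNA, miR-7670-3p, had this seed, and its probes were above background on 0 arrays. The seeds of the 3p arms differed from each other and from that of the 5p arms.

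The hairpins show how the arms are placed, with both mature arms in capitals. Mir204 lies at chr19:22750605-22750672 on the plus strand, inside the span of Trpm3, a gene of 857.6 kb on the same strand. Mir211 lies at chr7:64205806-64205911 on the plus strand, inside the span of Trpm1, a gene of 115.9 kb on the same strand.
Mir204 hairpin: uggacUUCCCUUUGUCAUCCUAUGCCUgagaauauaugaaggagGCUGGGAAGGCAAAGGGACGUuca
Mir211 hairpin: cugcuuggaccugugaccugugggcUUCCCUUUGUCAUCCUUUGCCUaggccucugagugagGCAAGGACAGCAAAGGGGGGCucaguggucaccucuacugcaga

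The probes that read the miRNAs, given in the scanner files as DNA complementary to the 3′ part of each miRNA, are shown because the separation of the paralogs rests on them. The capital marks the base at which the probes of the 5p arms differ, the substitution T6A counted from the 5′ end of the probe with the miR-204-5p base first.
miR-204-5p probe of 19 bases: aggcaTaggatgacaaagg
miR-204-5p probe of 20 bases: aggcaTaggatgacaaaggg
miR-211-5p probe of 19 bases: aggcaAaggatgacaaagg
miR-211-5p probe of 20 bases: aggcaAaggatgacaaaggg
miR-204-3p probe of 15 bases: acgtccctttgcctt
miR-211-3p probe of 12 bases: gcccccctttgc

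Every miRNA here had 30 spots per array. They were split over 2 probes for miR-204-5p, miR-204-3p and miR-211-3p, and over 4 probes for miR-211-5p, whose other 2 had 21 and 22 bases. None of the probes paired in full with another mature miRNA of the table.

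Of the 4 arms of the hairpins, the probes of miR-204-5p and miR-211-3p read above background on all 8 arrays, and those of their partner arms on no array. The probes of miR-211-3p have only 12 and 13 bases, and whether another RNA contributed to their signal was not tested. MiR-204-5p was well above background on all 8 arrays and did not differ detectably between Akita and control kidneys. MiR-204-3p and miR-211-5p had 0 usable spots above background in either group. A spot counted as well above background by the flag in the scanner files, and a miRNA counted as above background where at least 1 of its probes had the flag on a share of 0.5 or more of its spots.

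For miR-204-5p, 225 of the 238 usable spots over the 8 arrays were well above background (94.5%). Its probe of 20 bases passed on every spot of every array. Its probe of 19 bases passed on 48 of 60 spots on the Akita arrays and on 57 of 58 on the control arrays. The probe of 20 bases read 49.3, 40.8, 42.7 and 54.3 intensity units in Akita kidneys 1 to 4, against 49.9, 61.0, 65.2 and 65.1 in control kidneys 1 to 4, before any scaling between arrays. Akita kidney 4 exceeded control kidney 1, and the remaining control kidneys lay above all Akita kidneys. The spots of this probe varied within an array with a median coefficient of variation of 12.3% on the Akita arrays and 10.2% on the control arrays.

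MiR-204-3p, the 3p arm of the same hairpin, gave no measurable signal. None of its 236 usable spots was well above background, and 14 of its 16 probe means were below 0 after background subtraction, within a range from -3.47 to 1.24 intensity units. Its 2 probes summed to -2.33, -2.79, -3.65 and -3.64 units in Akita kidneys 1 to 4, against 0.92, -2.74, -3.07 and -3.60 units in control kidneys 1 to 4, so that no sample stood out from the background in either group. None of the 16 exceeded the 95th percentile of the negative control spots on its array, which lay between 5.82 and 8.99 on the Akita arrays and between 7.12 and 7.58 on the control arrays.

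MiR-211-5p, the 5p arm of the paralog, was below background on every array as well. None of its 221 usable spots was well above background. Summed over its 4 probes it read 10.5, 15.9, 16.8 and 15.5 units in Akita kidneys 1 to 4, against 14.8, 15.3, 14.6 and 8.43 units in control kidneys 1 to 4, unscaled, with overlapping groups. Of its 32 probe means, 1 exceeded the 95th percentile of the negative controls on its array, that of the probe of 22 bases on control array 3, at 7.32 against 7.21. That percentile is one of single spots, whereas a probe mean averages several. Only 2 of the 32 were below 0. The probes of 21 and 22 bases read from 2.56 to 6.16 on Akita arrays, beside negative control means of -0.06 to 2.99. On control arrays they read from 1.92 to 7.32, beside 0.73 to 1.63. Whether a weak signal of miR-211-5p lies behind these values was not tested. The probe of 20 bases, 1 base away from that of miR-204-5p, read between 0.76 and 4.91 on the Akita arrays and between 1.73 and 3.73 on the control arrays, below the 95th percentile of the negative controls on every array, and the same arrays read miR-204-5p above background on its own probe of 20 bases. No level is compared between the miRNAs, since probes differ in how strongly they bind.

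**Figure D1:**
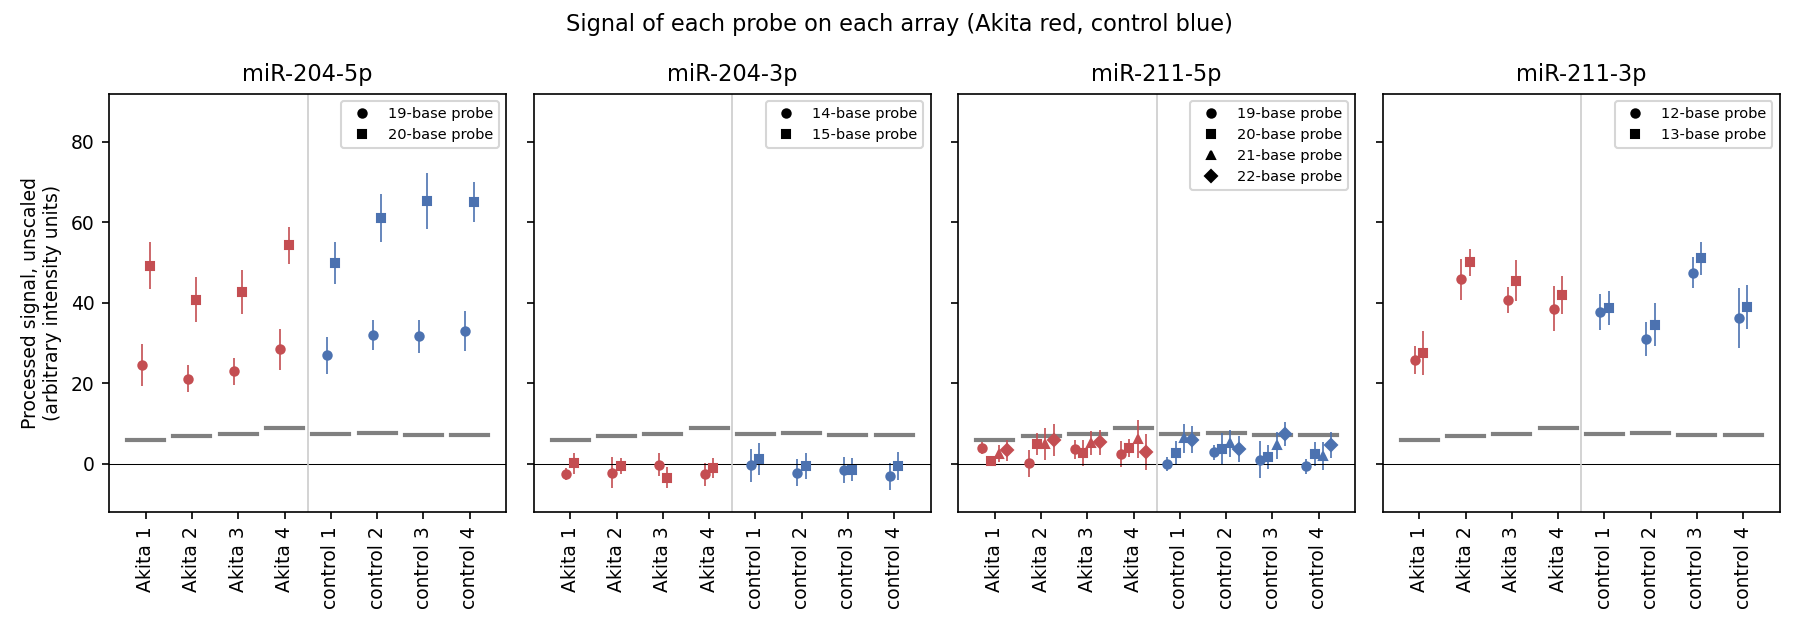
Mean processed signal of each probe on each array, unscaled and in intensity units, in a panel for each of miR-204-5p, miR-204-3p, miR-211-5p and miR-211-3p, with Akita arrays in red to the left of control arrays in blue. Bars are the SD over the spots of that probe, marker shapes give the probe length, and grey lines mark the 95th percentile of the negative control spots of the array. MiR-204-5p and miR-211-3p stand above the grey lines on all 8 arrays, while miR-204-3p lies below them throughout and miR-211-5p does so but for 1 probe mean of 7.32 on control array 3.

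The arrays were next brought to a common scale, each divided by its own 75th percentile over the 451 probes that were above background on all 8 arrays, and the probes of a miRNA were summed. On this scale miR-204-5p had log2 signals of 6.25, 6.04, 6.13 and 6.69 in Akita kidneys 1 to 4, against 6.16, 6.41, 6.46 and 6.44 in control kidneys 1 to 4. The groups overlapped at both ends: Akita kidney 4 was the highest of all 8 and control kidney 1 lay below Akita kidney 1. The means were 6.28 ± 0.29 in Akita kidneys and 6.37 ± 0.14 in control kidneys (SD, n = 4 each).

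The log2 fold change of miR-204-5p, Akita minus control, was -0.09 ± 0.14 (SE), with a 95% interval from -0.41 to 0.23 and an adjusted p = 0.68 in limma's moderated test over the 285 tested miRNAs. This corresponds to a 0.94-fold level in Akita kidneys, with an interval from 0.75-fold to 1.17-fold. This interval spans no change, and a change of either sign inside it is not excluded with 4 samples a group. The unadjusted p = 0.54 was also above the threshold, and 221 tested miRNAs had a smaller one. Without Akita kidney 4 the log2 fold change was -0.23 (adjusted p = 0.17), and without control kidney 1 it was -0.16 (adjusted p = 0.47). An exact two-sided permutation test of the same 8 values gave p = 0.60, where the smallest p that 4 against 4 samples allow is 0.029.

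Of the 3 members, 1 was tested and 0 were called at an adjusted p under 0.05, where 14.7% of all tested miRNAs were called, 6.32% as lower and 8.42% as higher in Akita kidneys. At an unadjusted p under 0.05 likewise 0 members passed, against 34.0% of all tested miRNAs. The groups of miR-204-5p overlapped, whereas 22.8% of tested miRNAs had groups that did not overlap, and in 9.12% the Akita group was the lower one. MiR-204-5p was more variable than most, with an SE above that of 231 of the 285 tested miRNAs, whose median SE was 0.09. Its mean log2 signals, 6.28 in Akita and 6.37 in control kidneys, stood above a floor of 4.56, and whether a dim signal widened its SE was not tested.

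Both probes of miR-204-5p gave the same picture. The log2 difference, Akita minus control, was -0.08 for the probe of 19 bases and -0.10 for the probe of 20 bases. The probes are shortened forms of the same sequence on the same arrays and are no independent measurements.

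The level of miR-204-5p without scaling between arrays was lower in Akita kidneys, and the arrays as a whole were dimmer there as well. Its summed signal was 73.8, 61.9, 65.7 and 82.7 units in Akita kidneys 1 to 4, against 76.9, 93.1, 96.9 and 98.0 units in control kidneys 1 to 4. Akita kidney 4 was above control kidney 1, and the other values did not cross between groups. The log2 fold change of these values was -0.36 (95% interval -0.62 to -0.10) with a limma adjusted p = 0.032, while the exact two-sided permutation p was 0.057. The 75th percentile of the measured probes was 420.8 ± 35.2 on Akita arrays and 506.7 ± 10.3 on control arrays (SD, n = 4 each), with an exact two-sided permutation p = 0.029, and the median change over the 285 tested miRNAs was -0.21 without scaling and 0.06 with it. Relative to that median, miR-204-5p stood at -0.15 under both settings, which is given in advance, since a factor per array moves both alike. Against the median of its own setting, miR-204-5p stood at -0.04 with normexp, at 0.03 with the floor 4 times higher and at -0.28 with array weights. With the spike-in controls as the reference its log2 fold change was -0.25 (adjusted p = 0.20), and it was 0.0016 where all probes entered the percentile. The part of array brightness in the unscaled difference was not tested.

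**Figure D2:**
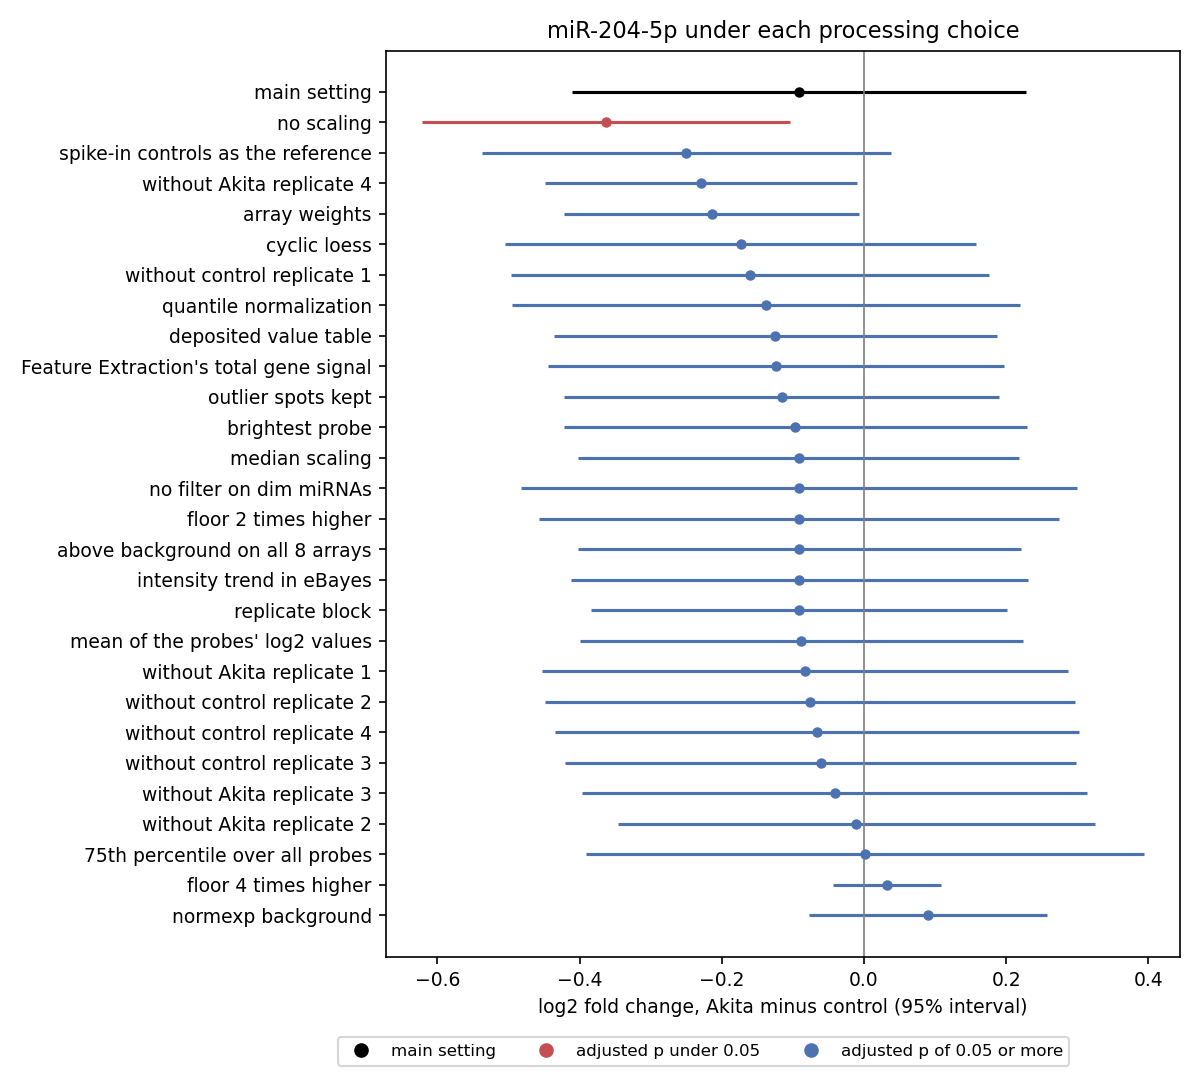
Log2 fold change of miR-204-5p, Akita minus control, with its 95% interval (bars), in the main setting at the top and under each of the 27 alternatives below, ordered by value. The call without scaling, at -0.36, is the only one past an adjusted p of 0.05, and the estimates with the percentile over all probes, the floor 4 times higher and normexp lie above 0.

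The ratio of the arms could be set for neither hairpin, because in each of them one arm was below background on every array, so the planned test of the arm difference was not made. Among the 723 hairpins with both arms on the arrays, miR-204 belonged to the 87 with the 5p arm above background on all 8 arrays and the 3p arm on none. MiR-211 belonged to the 51 with the reverse pattern. Both arms were above background on all 8 arrays in 20 hairpins (2.77%), and neither on any array in 500 (69.2%).

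MiR-211-3p, the arm of the paralog whose probes gave a signal, was well above background on 233 of its 235 usable spots. Its summed log2 scaled signals were 5.78, 6.67, 6.52 and 6.65 in Akita kidneys 1 to 4, against 6.15, 5.91, 6.48 and 6.06 in control kidneys 1 to 4. In the Akita kidneys 3 values lay above all control values and the remaining one, that of kidney 1, below all of them. The means were 6.41 ± 0.42 in Akita kidneys and 6.15 ± 0.24 in control kidneys (SD, n = 4 each), with a log2 fold change of 0.26 ± 0.20 SE (95% interval -0.20 to 0.72, limma adjusted p = 0.40). Without Akita kidney 1 it was 0.46 (adjusted p = 0.066), and without scaling it was -0.015. Its probes are short, 12 and 13 bases, of which 9 are G or C in each, and pair with the last bases of the miRNA, which hold the run of G. Of all 628 probes of these lengths on the arrays, 9.39% were above background on all 8 arrays, against 10.2% of all 4415 probes. Whether another RNA with the same short end contributed to this signal was not tested; no other mature miRNA of the table paired in full with either probe.

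The profile of miR-204-5p over the 8 arrays was nearest to those of miR-192-5p and miR-194-5p, miRNAs known from the tubular epithelium. Likeness was measured as the root mean square difference between log2 profiles, each centred on its own mean, over 256 other miRNAs above background on all 8 arrays. It was 0.094 for miR-192-5p and 0.097 for miR-194-5p, followed by let-7e-5p at 0.11, miR-192-3p at 0.12 and miR-195a-5p at 0.12, where the median over all 256 was 0.22. A factor per array cancels in this measure, so that the order is the same under any scaling by a factor. All arrays contribute the same labelling and brightness to every miRNA, and the likeness is a description of these 8 arrays.

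MiR-204-5p deviated from its own mean by -0.07, -0.29, -0.19 and 0.37 on the log2 scale in Akita kidneys 1 to 4, and by -0.16, 0.09, 0.13 and 0.12 in control kidneys 1 to 4. MiR-192-5p deviated by 0.07, -0.21, -0.09 and 0.21 in Akita kidneys 1 to 4, and by -0.18, 0.05, 0.08 and 0.06 in control kidneys 1 to 4. On this scaled measure both were highest in Akita kidney 4 and lowest in Akita kidney 2, and both were low in control kidney 1. Unlike the distances, such an order of arrays depends on the scaling. Akita array 4 had been divided by a factor of 0.80. Unscaled, miR-204-5p read 82.7 units in Akita kidney 4, below the 93.1, 96.9 and 98.0 units of control kidneys 2 to 4. With quantile normalization and with cyclic loess miR-192-3p, the partner arm of miR-192-5p, came first, while miR-192-5p ranked 28 and 2, and miR-194-5p ranked 19 and 10.

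**Figure D3:**
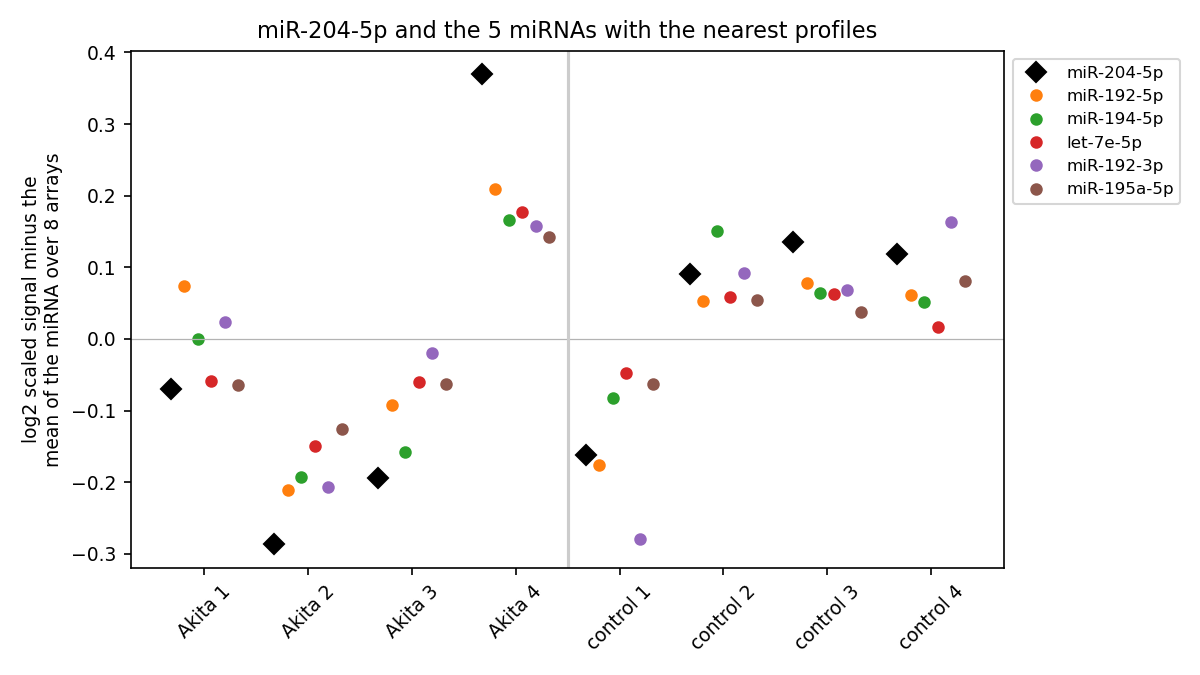
Log2 scaled signal of miR-204-5p (black diamonds) and of the 5 miRNAs with the nearest profiles (coloured points), each minus its own mean over the 8 arrays, with the Akita arrays left of the control arrays. On this scaled measure all 6 are highest or second highest in Akita kidney 4, and all lie below their mean in Akita kidneys 2 and 3 and in control kidney 1.

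Next to listed miRNAs known to be abundant in kidney epithelium, miR-204-5p had the fourth lowest log2 fold change, above those of miR-203-3p, miR-10a-5p and miR-194-5p. Of the 16 on a list chosen with earlier results of these data known, 15 were tested, and 2 rose, 0 fell and 13 did not pass the test. Among all tested miRNAs 8.42% rose and 6.32% fell. MiR-200c-3p rose by 0.28 ± 0.07 SE on the log2 scale (limma adjusted p = 0.032) and miR-141-3p by 0.28 ± 0.08 SE (adjusted p = 0.047). Both belong to the miR-200 family, which represses the ZEB factors and so keeps cells epithelial. The calls depend on the scaling: under 27 alternatives miR-200c-3p was called in 12 and miR-141-3p in 7, with no negative value, and without scaling they stood at 0.01 and 0.0069 while 6 listed miRNAs fell. With the spike-ins 0 rose and 3 fell, and 0 passed with the percentile over all probes, with median scaling or with the replicate block. With 1 array left out, 0 passed in 6 of 8 fits, those without Akita kidney 1, 3 or 4 or without control kidney 1, 3 or 4. The median log2 fold change of the 15 was 0.12, beside 0.06 over all tested miRNAs, and it was -0.15 without scaling, -0.03 with the spike-ins and 0.057 without Akita kidney 4.

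The listed miRNAs with log2 fold changes closest to that of miR-204-5p were miR-10b-5p at -0.09 (adjusted p = 0.39) and miR-10a-5p at -0.15 (adjusted p = 0.16), both encoded in HOX clusters, and miR-194-5p at -0.09 (adjusted p = 0.52). MiR-215-5p, a relative of miR-192-5p, was above background on no array. Of the 285 tested miRNAs, 77 had a log2 fold change no higher than that of miR-204-5p, itself included.

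**Figure D4:**
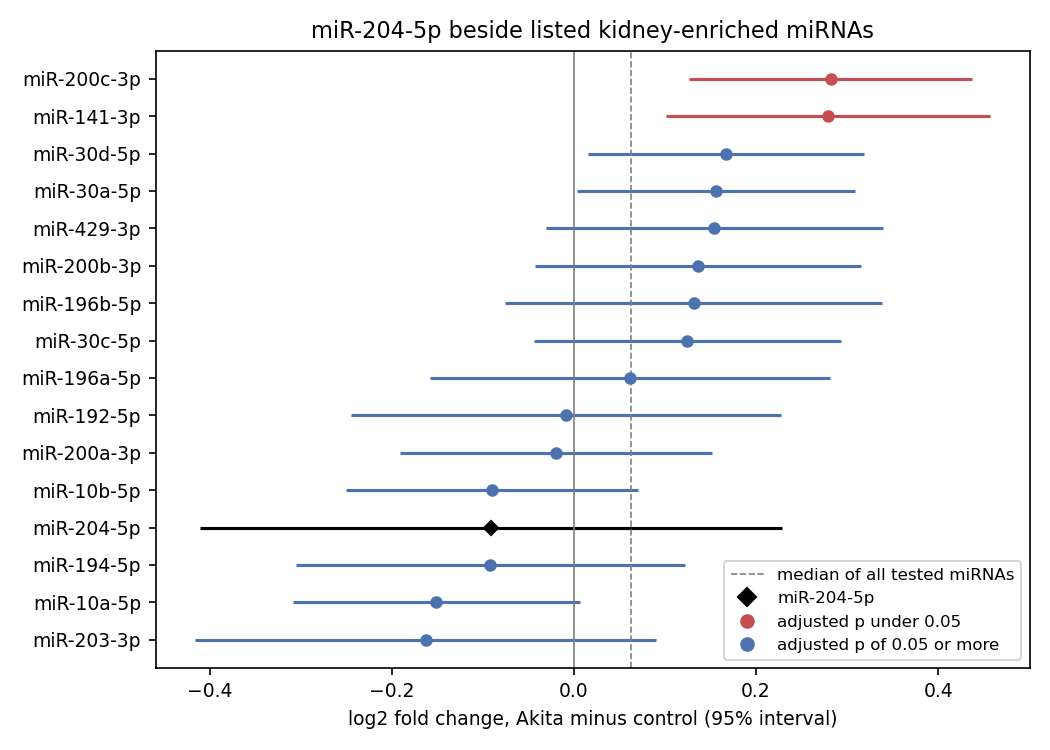
Log2 fold change, Akita minus control, with 95% intervals (bars) of miR-204-5p (black diamond) and of the 15 tested miRNAs of the kidney list, highest at the top; the dashed line is the median of all tested miRNAs, 0.06. MiR-200c-3p and miR-141-3p, in red, passed the test in the main setting, and the interval of miR-204-5p, from -0.41 to 0.23, spans 0.

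Of 6 miRNAs of the retina and of pigment cells, where miR-204 and miR-211 are also known, 4 (miR-184-3p, miR-182-5p, miR-183-5p and miR-124-3p) were above background on no array, and 2 (miR-96-5p and miR-125b-5p) on all 8. Among all 1881 miRNAs on the arrays, 1531 were above background on no array and 257 on all 8. The log2 fold change of miR-96-5p was 0.09 (adjusted p = 0.58). MiR-125b-5p, which many tissues express, averaged 11.04 ± 0.09 in Akita kidneys and 11.26 ± 0.06 in control kidneys on the log2 scale (SD, n = 4 each); its groups did not overlap, and its log2 fold change of -0.22 was not called (adjusted p = 0.059). The summed log2 signal of the 6 ran from 11.02 to 11.21 in Akita kidneys and from 11.23 to 11.36 in control kidneys. This sum is nearly that of miR-125b-5p alone, since miR-96-5p averaged only 6.23 in Akita and 6.14 in control kidneys. It therefore describes no set of retinal or pigment cell miRNAs, and its part in the values of miR-204-5p was not tested. For the identity of the tissue, 3 of 4 tubule markers were above background on all 8 arrays and 0 of them were called. Their summed log2 signal ran from 13.95 to 14.18 in Akita kidneys and from 13.91 to 14.08 in control kidneys. Of 6 leukocyte miRNAs, listed with earlier results of these data known, 5 fell and 0 rose, beside 6.32% and 8.42% of all tested miRNAs. Their summed log2 signals ran from 9.52 to 9.77 in Akita kidneys and from 10.06 to 10.27 in control kidneys. All 6 were negative under each scaling alternative, and 0 passed where all probes entered the percentile, while normexp background correction left 5 of 6 negative. Their part in the values of miR-204-5p was not tested. The erythrocyte miRNA miR-451a had log2 signals of 9.31, 9.24, 9.59 and 9.18 in Akita kidneys 1 to 4, against 6.44, 8.60, 10.23 and 7.08 in control kidneys 1 to 4. The control kidneys spread widely on both sides of the Akita kidneys, and control kidney 1, where miR-204-5p was also lowest of its group, was the lowest. Control kidney 4 came next for miR-451a, while its miR-204-5p, at 6.44, lay between the 6.41 and 6.46 of control kidneys 2 and 3. The log2 fold change of miR-451a was 1.24 ± 0.69 SE and was not called (limma adjusted p = 0.24). The part of blood RNA in the values of miR-204-5p was not tested. The other 2 of its list were above background on 3 arrays or fewer. None of the 2 endothelial and 2 smooth muscle miRNAs was called, and those of liver, muscle and pancreas were not tested, since none was above background on all arrays of a group. Per array, 274 to 298 miRNAs were above background in Akita kidneys and 295 to 327 in control kidneys, and arrays correlated over the tested miRNAs with r between 0.975 and 0.997 on the log2 scale.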

How the data were processed

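Total RNA of 8 kidney samples (100 ng each) was Cy3-labelled for one-colour Agilent miRNA arrays, per the labels' protocols. The deposited scanner files hold spot intensity on a linear scale, extracted with Agilent Feature Extraction 12.0.3.1 per the file headers, with a fitted spatial background subtracted and no scaling between arrays. The deposited value table holds a ratio per miRNA and array made by the authors; how it was normalized, the sources used here do not say. Its columns' medians ran from 1.03 to 1.22 for Akita and from 0.70 to 0.97 for control samples; its scale and centring stay unknown. It served as an alternative.

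Spots marked as outliers were dropped and the rest averaged per probe; none was saturated. The scaling divisor of an array was its 75th percentile over the 451 probes measured above background throughout. Scaled probe means were summed per miRNA, raised to a floor of 23.65 where lower (4.56 in log2), and log-transformed. Two-sided limma tests (version 3.58.1, R 4.3.3; lmFit, then eBayes; residual degrees of freedom 6, total 9.16) covered 285 miRNAs, those for which every array of Akita, of control or of both was above background, and p-values were adjusted by Benjamini and Hochberg. The limma step, without the scaling and filtering before it, was tested on simulated log2 values. The number of arrays limits the precision. The members and lists, and the rule for other named miRNAs (the seed family, the other arm of miR-211, the kidney, retina and cell type lists, the 5 nearest profiles), were chosen with earlier results of these data known. Quantile and loess normalization were run on the tested miRNAs. Sequences and host spans come from RefSeq tables of GRCm38.p6, and no position of the array's own mm9 annotation was used.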

Additional observations from a re-analysis of the deposited data

Results flagged for a closer look

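In the control kidneys, miR-204-5p stood at 6.16 on the log2 scale in kidney 1, apart from 6.41, 6.46 and 6.44 in the other 3; the gap to the nearest value was 0.851 of the range, above Dixon's 95% critical value for 4 samples. Without this kidney the log2 fold change of miR-204-5p was -0.16 (limma adjusted p = 0.47), against -0.09 with all samples. In the Akita kidneys, miR-211-3p stood at 5.78 in kidney 1, apart from 6.67, 6.52 and 6.65 in the other 3, with a gap of 0.835 of the range. Without it the log2 fold change of miR-211-3p was 0.46 (adjusted p = 0.066), against 0.26 with all samples. Of the 4 groups of values checked 2 were picked out, where chance picks about 5%. Control kidney 1 was also low for miR-192-5p, at -0.18 from that miRNA's mean.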

How the results depend on the processing

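The log2 fold change of miR-204-5p was negative under 24 of 27 alternatives and called under 1. Without scaling it was -0.36 (adjusted p = 0.032). It was above 0 for the all-probe percentile (0.0016), with normexp background correction (0.090) and with the floor 4 times higher (0.03), where the floor lies above 7 of its 8 values; the causes of the others were not tested. With 1 array left out it ran from -0.23 (without Akita replicate 4, adjusted p = 0.17) to -0.01 (without Akita replicate 2), with no call. MiR-211-3p stood at -0.015 without scaling and was called with normexp (0.23, adjusted p = 0.045). The number of called miRNAs, 42, became 109 without scaling, 67 where spike-ins set the scale, 70 after cyclic loess, 14 for the all-probe percentile, 89 after normexp, 76 under array weights, 21 on Feature Extraction's total signal, 9 at the floor 4 times higher, 6 when all 1881 miRNAs were kept, and 20 to 40 with 1 array left out (20 without Akita replicate 1, 22 without Akita replicate 3, 21 without Akita replicate 4, 27 without control replicate 2 and 23 without control replicate 3). Higher against lower calls were 24 and 18, but 5 and 104 without scaling, 10 and 57 on spike-ins, 10 and 4 for the all-probe percentile, 9 and 12 on the total signal, 29 and 41 after cyclic loess, and 81 and 8 after normexp. With the replicate block the change of miR-204-5p was -0.09 (limma adjusted p = 0.69) and 25 miRNAs were called. The deviations of same-numbered arrays correlated at 0.096, -0.30, 0.34 and -0.35. With so few arrays these values cannot decide whether the numbers pair the samples. The arm difference of miR-204 was not fitted under any alternative, since its 3p arm was below background on all arrays. For miR-204-3p and miR-211-5p, signals below background leave no change to be measured.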

Other observations

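In the authors' deposited value table, the 2 members below background show values that differ between the groups without any spot well above background behind them. MiR-204-3p and miR-211-5p each have values from 1.03 to 1.22 in the Akita samples and from 0.70 to 0.97 in the control samples of that table, with no overlap and a ratio of the means of 1.26. Feature Extraction's total signal of both miRNAs was 0.1 on all 8 arrays, and the same 8 values stand in 1448 of the 1902 rows of the table (76.1%), compared exactly as written. MiR-204-5p, with a measured signal, had 0.93, 0.83, 0.91 and 1.23 in Akita samples 1 to 4 of the deposited table, against 0.89, 1.08, 1.15 and 1.11 in control samples 1 to 4, with overlapping groups.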
